A study of Homo sapiens with 33 samples.

Results

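The expression of 40 genes of mitosis was followed in NB4 cells, a human acute promyelocytic leukaemia line that carries the PML-RARA fusion and differentiates along the granulocyte line when given all-trans retinoic acid (ATRA). The members were named by symbol and cover mitotic kinases and cyclins, the spindle checkpoint, the kinetochore, spindle motors, anaphase, cytokinesis and chromosome structure. Each of the 40 symbols matched 1 of the 85160 gene rows of the count table, and all 40 were among the 22971 genes with enough counts to be tested. RNA-seq counts were available for 33 libraries in 11 groups of 3 biological replicates, which the sample titles number 2, 4 and 5. The groups were untreated cells at 0 h, and cells given 1 µM ATRA or DMSO, its solvent, for 4, 12, 24, 72 or 120 h. All groups are the NB4 line grown in RPMI 1640 with fetal bovine serum. New medium containing the drug or solvent was given on day 3, which is later than the collections at 0, 4, 12 and 24 h. Whether the 72 h cells were collected before or after that addition is not given in the sources used here. Levels are in CPM, the usual counts per library size, with library sizes scaled by the trimmed mean of M-values (TMM).

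Mitosis is driven by the kinase CDK1 bound to its cyclins, which are made as cells approach division and are destroyed at anaphase. The spindle checkpoint holds cells in metaphase until every kinetochore is attached to microtubules, after which an E3 ubiquitin ligase, the anaphase-promoting complex, releases the sister chromatids. Most of these genes are transcribed late in the cell cycle, in G2 and M, and are kept low in resting cells, in part through a promoter element called the cell cycle genes homology region (CHR), which is bound by complexes built on MuvB, often with CCAAT boxes of the factor NF-Y nearby. Their RNA is for this reason widely used as a measure of how many cells of a population are dividing. In bulk RNA, fewer dividing cells and less RNA of these genes per dividing cell cannot be told apart.

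Promoter sequence was examined because it is a property of the members that their choice by name did not use. Promoters from RefSeq (GRCh38.p14) were examined for 34 of the 40 members, and those of AURKA, BIRC5, BUB3, TTK, TPX2 and UBE2C were not examined. In the 250 bases before the gene start, read on both strands, the CHR letters TTTGAA were found in 20 of the 34 members (58.8%), against 8.86% of the 10278 promoters of tested protein-coding genes. The related letters TTTAAA, which read the same on both strands and do not overlap TTTGAA in sequence, were found in 10 members (29.4% against 7.24%), and CCAAT in 26 (76.5% against 34.8%). Both TTTGAA and CCAAT were present in 17 of the 34 members, against 3.51% of the tested promoters. Among 31 DNA replication genes, 29 had a promoter and 1 of them held TTTGAA (3.45%). In 14 of the 20 members with TTTGAA the match nearest the gene lay within 40 bases before its start. The share of other tested promoters with a match this close was not counted. The letters TTTCGCGC, a form of the E2F site, were found in no member, against 0.808% of the tested promoters. These are matches of letters and were not tested as binding sites.

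The 150 bases before the start of 6 members are shown as examples of these arrangements, with CENPA included as the member of smallest change at 120 h. Capitals mark the CHR letters, the related letters and the CCAAT box, which reads ATTGG where it lies on the opposite strand.
CCNB2 (chr15:59104996-59105145, plus strand): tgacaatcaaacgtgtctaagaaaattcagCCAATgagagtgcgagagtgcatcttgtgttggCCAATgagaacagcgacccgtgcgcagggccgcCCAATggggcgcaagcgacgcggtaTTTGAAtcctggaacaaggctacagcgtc
PLK1 (chr16:23678739-23678888, plus strand): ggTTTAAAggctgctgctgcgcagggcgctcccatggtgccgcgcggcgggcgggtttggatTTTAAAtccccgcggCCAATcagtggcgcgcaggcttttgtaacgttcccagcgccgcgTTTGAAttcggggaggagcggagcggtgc
CDC20 (chr1:43358831-43358980, plus strand): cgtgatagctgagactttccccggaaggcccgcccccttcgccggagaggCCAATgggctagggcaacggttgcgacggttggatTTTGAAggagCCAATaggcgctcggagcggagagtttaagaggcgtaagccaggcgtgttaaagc
CCNB1 (chr5:69167000-69167149, plus strand): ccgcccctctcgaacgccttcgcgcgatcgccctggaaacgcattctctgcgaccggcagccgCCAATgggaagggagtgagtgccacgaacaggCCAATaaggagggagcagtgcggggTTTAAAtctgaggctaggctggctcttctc
KIF20A (chr5:138178962-138179111, plus strand): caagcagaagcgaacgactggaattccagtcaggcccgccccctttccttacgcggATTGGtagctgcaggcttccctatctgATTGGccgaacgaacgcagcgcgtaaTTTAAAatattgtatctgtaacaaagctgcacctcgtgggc
CENPA (chr2:26785906-26786055, plus strand): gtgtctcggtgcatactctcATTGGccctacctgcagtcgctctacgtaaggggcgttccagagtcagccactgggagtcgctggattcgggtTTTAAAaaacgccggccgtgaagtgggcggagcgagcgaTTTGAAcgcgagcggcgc
CCNB2 and PLK1 each had TTTGAA 29 bases before the start, while CCNB1 and KIF20A held TTTAAA and no TTTGAA.

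The libraries held 18341456 to 33490654 counts, with a median of 25927472. The promyelocyte marker MPO had a mean of 11150 CPM in untreated cells, and PRTN3 and AZU1 had 999.6 and 115 CPM, while ELANE had 0.303 CPM. The retinoid-responsive DHRS3 had 2.05 CPM in untreated cells and 247 CPM under ATRA at 120 h, against 5.71 CPM under DMSO. Of 3 retinoid-responsive genes checked, 2 were called higher under DMSO at 72 h than in untreated cells. Their log2 fold changes had a median of 2.31 and a range of -0.98 to 2.59. At 120 h of DMSO 2 of the 3 were called higher (median 1.01). Of all genes 26.9% and 12.3% were called higher at these times. The cause of this rise under DMSO was not tested. The summed level of 10 markers of T, B, erythroid, epithelial and fibroblast cells was between 9.63 and 23.7 CPM in every library, lowest under ATRA at 120 h.

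The summed level of the 40 members was 5332 to 5676 CPM in untreated cells. Under ATRA the sum was 5738 to 5931 CPM at 4 h, above all 3 untreated libraries. It was 5141 to 5298 CPM at 12 h, 4549 to 4632 CPM at 24 h, 2527 to 2795 CPM at 72 h and 1506 to 1907 CPM at 120 h. Under DMSO the sum was 4555 to 5473 CPM at 4 h, 5128 to 5314 CPM at 12 h, 4775 to 4958 CPM at 24 h, 3826 to 3980 CPM at 72 h and 4679 to 4746 CPM at 120 h. The arms overlapped at 12 h alone, and from 12 h on every DMSO library was below every untreated library, with the lowest DMSO values at 72 h. By group mean, ATRA at 4 h was the highest of the 11 groups for 24 members, untreated cells for 8, ATRA at 12 h for 6, and DMSO at 4 h and at 12 h for 1 each. ATRA at 120 h was the lowest group for 39 members, and ATRA at 72 h for CENPA.

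**Figure D1:**
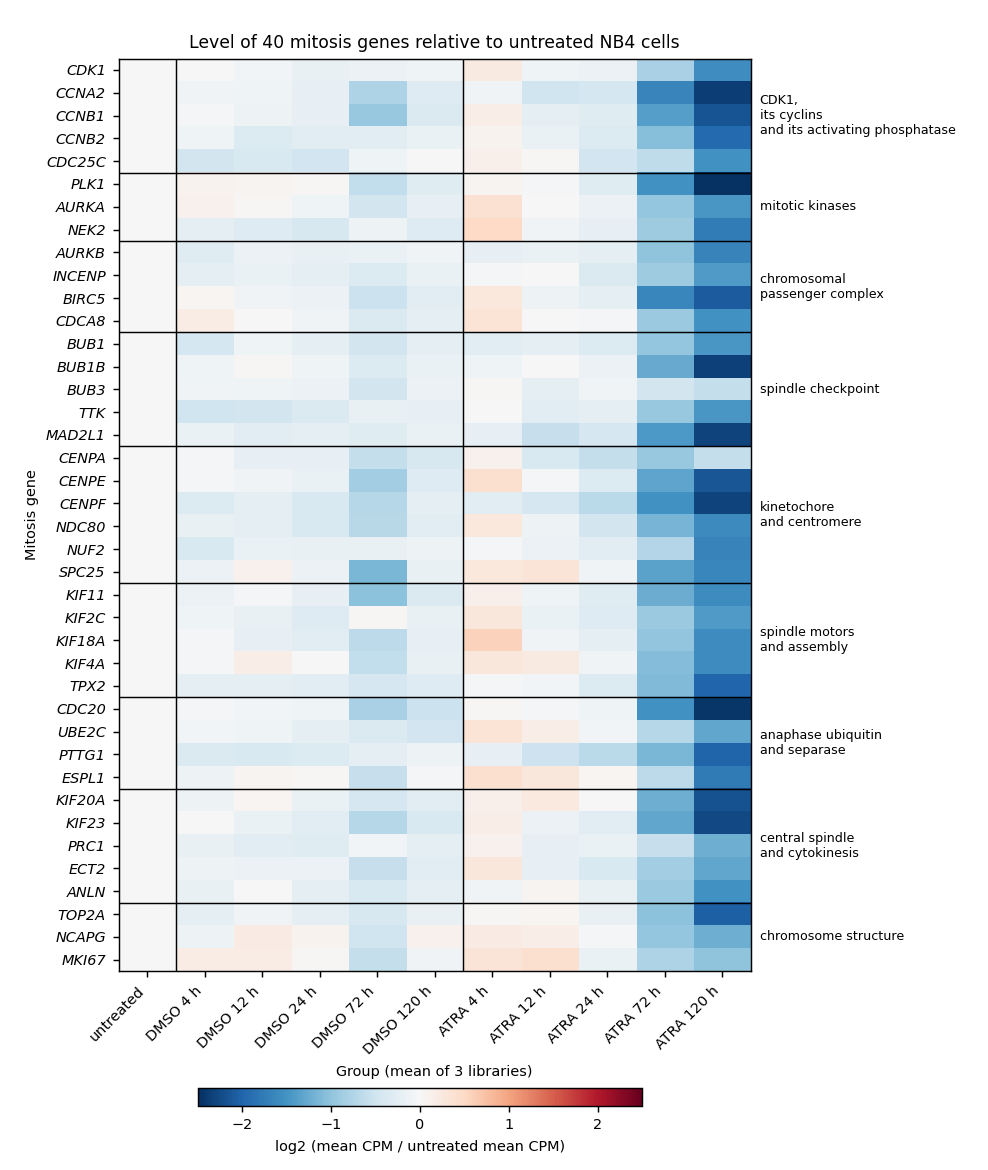
Mean level of each of the 40 mitosis genes (rows, by role) in the 11 groups (columns), as the log2 ratio of the group's mean CPM to that of untreated cells, with n = 3 libraries a group. Colours near white mark levels like those of untreated cells, and the darkest blue is in the ATRA 120 h column, where BUB3 and CENPA are the palest rows.

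At 4 h of ATRA, 22 members were higher than under DMSO and 0 were lower. Across all genes tested, 12.3% were called higher and 12.4% lower; a gene was called where its Benjamini-Hochberg adjusted p from edgeR's quasi-likelihood test was under 0.05. The rise was small, with a median log2 fold change of 0.22 over the 40 members against 0.005 over all genes, and 37 of the 40 values lay above 0. The ATRA libraries were all above the DMSO libraries for 30 members, where 34.9% of all genes had arms apart in either direction. No member was called lower at an unadjusted p under 0.05 either, nor by DESeq2 or limma-voom. The kinetochore and spindle motor groups had 4 of 6 and 4 of 5 members higher, the mitotic kinases 2 of 3, and the spindle checkpoint 1 of 5.

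NEK2, a kinase that separates the centrosomes on entry into mitosis, had the smallest p. Its level was 24.1, 29.6 and 20.9 CPM in the DMSO libraries (replicates 2, 4 and 5) and 40.1, 43.1 and 40.9 CPM in the ATRA libraries, a log2 fold change of 0.73 ± 0.09 (SE, adjusted p = 6.6e-09). ESPL1, the separase that cuts cohesin at anaphase, was at 94.9, 96.6 and 102 CPM under DMSO and 145, 143 and 133 CPM under ATRA (0.52 ± 0.07, adjusted p = 2.36e-07). Every ATRA library lay above every DMSO library for both genes. KIF18A, a kinesin that damps chromosome movement at metaphase, was at 32.8, 35.5 and 25.6 CPM under DMSO and 46.9, 47.6 and 51.0 CPM under ATRA (0.63 ± 0.09, adjusted p = 1.12e-06). TTK, the kinase that starts the spindle checkpoint, was at 48.7, 52.3 and 38.1 CPM under DMSO and 68.9, 65.3 and 65.1 CPM under ATRA (0.52 ± 0.09, adjusted p = 1.96e-05). For TTK the ATRA libraries lay in the range of the untreated cells, which was 62.0 to 69.9 CPM, whereas for NEK2, ESPL1 and KIF18A they lay above it.

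At the other end, CCNA2, PLK1, BUB1B and MAD2L1 had log2 fold changes of 0.01, -0.01, -0.01 and -0.05 at 4 h and did not pass. DMSO replicate 5 was low in many members at this time, as in NUF2, a subunit of the microtubule-binding NDC80 complex, at 30.8, 33.9 and 15.9 CPM under DMSO. By replicate number, the median log2 ratio of ATRA to DMSO was 0.21, 0.12 and 0.38, with 36, 34 and 39 of the 40 members above 0. Without DMSO replicate 5 the count was 13 higher and 1 lower: CCNB1, AURKA, BIRC5, CENPE, NUF2, SPC25, KIF11, TOP2A and NCAPG no longer passed, and MAD2L1 was lower (-0.23, adjusted p = 0.0496). NEK2, ESPL1, KIF18A and TTK passed without it. DMSO at 4 h was itself compared with untreated cells, a comparison that shares the DMSO libraries with that of ATRA. In it 1 member was called higher (CDCA8) and 12 lower, against 15.7% of all genes in each direction. With libraries scaled by their totals alone 4 members were higher and 4 lower, where 5286 of the 22971 genes were higher and 1976 lower. The median of the members relative to that of all genes was -0.121 with that scaling and -0.125 with TMM. The 12 lower calls were 19 without DMSO replicate 4 and 7 without DMSO replicate 5.

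At 12 h the shares of members called were no larger than those of all genes. CDC25C, NEK2, INCENP, UBE2C, ESPL1, KIF20A and MKI67 were higher under ATRA and CCNA2, MAD2L1 and CENPA were lower, so that 7 and 3 of 40 were called, beside 20% and 18.7% of all genes. The arms were apart for 8 members with ATRA above and 7 with ATRA below, where 47.3% of all genes had arms apart. The median log2 fold change was 0.02 against 0.03 over all genes. CDC25C, the phosphatase that activates CDK1, had a log2 fold change of 0.39 ± 0.12 (SE, adjusted p = 0.00795), with 7.70, 8.21 and 8.21 CPM under DMSO and 11.3, 10.9 and 9.60 CPM under ATRA. CCNA2, the cyclin of S and G2 phase, was at 184, 192 and 189.9 CPM under DMSO and at 145, 146 and 139 CPM under ATRA (-0.39 ± 0.07, adjusted p = 1.08e-05). Both genes had arms apart. The higher calls at 12 h were sensitive to single libraries: there were 4 without DMSO replicate 2 or 4, 2 without DMSO replicate 5, 1 without ATRA replicate 4 and 3 without ATRA replicate 5. With libraries scaled by their totals alone 11 were higher and 1 lower, and with RLE size factors 4 and 4. Of the 22971 genes, 5461 were higher and 3167 lower with library totals, and 4357 and 4615 with RLE size factors.

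At 24 h, 6 members were lower under ATRA and 0 higher, beside 15.8% and 17.4% of all genes, with a median of -0.05 against 0.02 over all genes. The arms were apart for 6 members with ATRA above and 16 with ATRA below, where 47.0% of all genes had arms apart. At an unadjusted p under 0.05, 2 members were higher, and neither DESeq2 nor limma-voom called any. The 6 were CCNA2, PLK1, CENPA, CENPF, PTTG1 and ECT2. CENPA, the histone H3 variant that marks centromeres, had the smallest p, with 63.0, 64.5 and 61.8 CPM under DMSO and 48.4, 47.5 and 47.2 CPM under ATRA (-0.40 ± 0.07, adjusted p = 1.26e-05). PTTG1, the securin that holds separase inactive, was at 63.4, 64.0 and 63.3 CPM under DMSO and 46.5, 54.1 and 51.8 CPM under ATRA (-0.33 ± 0.08, adjusted p = 0.00142). No ATRA library reached the DMSO range in either gene. CCNA2 and CENPA were lower at both 12 h and 24 h. The groups of 24 h compared alone gave 3 higher and 11 lower members.

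**Figure D2:**
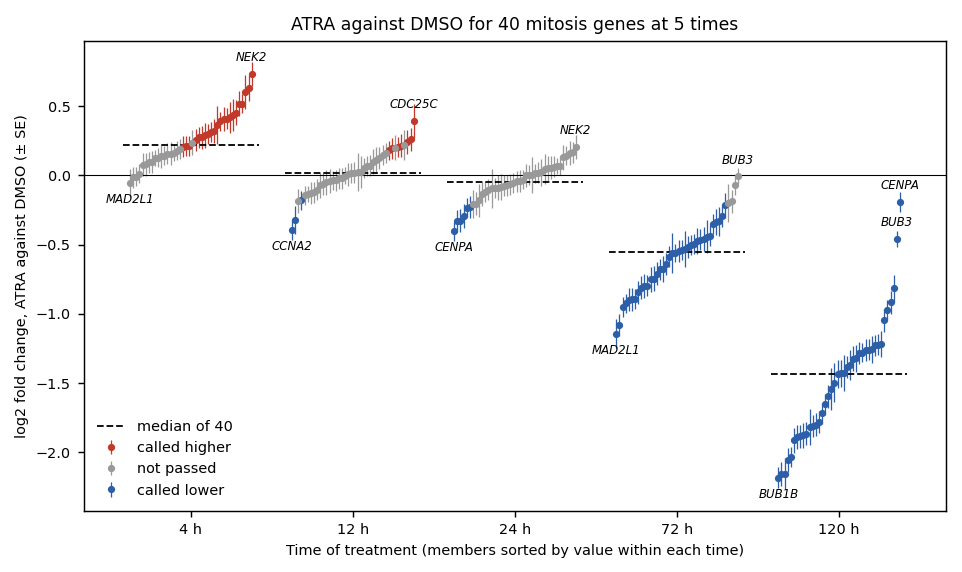
Log2 fold change of ATRA against DMSO (vertical axis, ± SE of the fit, n = 3 libraries a group) for the 40 members at 5 times, sorted by value within each time; red and blue points passed an adjusted p of 0.05 and dashed lines are medians. The median goes from 0.22 at 4 h through 0.02 and -0.05 to -0.55 at 72 h and -1.43 at 120 h, where CENPA and BUB3 stand above the rest.

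By 72 h the members were low under ATRA, and by 120 h lower still. At 72 h, 36 of 40 were called lower and 0 higher, beside 32.6% and 32.1% of all genes, with a median log2 fold change of -0.55 against -0.02 over all genes, a 1.47-fold reduction. At 120 h all 40 were called lower and 0 higher, beside 35.6% and 34.9% of all genes, with a median of -1.43 against -0.03, a 2.7-fold reduction. No member was higher at either time at an unadjusted p under 0.05, by DESeq2 or by limma-voom. At 120 h, 35 members were reduced at least 2-fold, 17 at least 3-fold and 5 at least 4-fold, where 2 had been reduced 2-fold at 72 h. The libraries of the 2 arms did not overlap for 37 members at 72 h, beside 68.8% of all genes in either direction, and for all 40 at 120 h, beside 71.7%. Against untreated cells all 40 members were lower under ATRA at both times and 0 were higher (medians -1.0 and -1.61). Of all genes 32.5% were lower and 37.4% higher at 72 h, and 34.3% and 38.4% at 120 h. The libraries of ATRA and of untreated cells were apart for all 40 members at both times, beside 72.8% and 73.5% of all genes. Untreated cells were sequenced in lane 4 and the ATRA cells of 72 h and 120 h in lanes 2 and 3. Lane therefore cannot be told apart from time and treatment in this comparison with untreated cells.

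CDK1 and its partners all fell. CCNB1, the main mitotic cyclin (ENSG00000134057, chromosome 5, 69167010 to 69178245, plus strand), had the highest count per exon base of all members. It was at 119, 134 and 118 CPM under DMSO at 72 h against 96.7, 87.3 and 90.2 CPM under ATRA, and at 189.7, 189.8 and 179 CPM under DMSO at 120 h against 59.7, 57.1 and 42.6 CPM under ATRA. CCNA2 (ENSG00000145386, chromosome 4, 121816444 to 121823933, minus strand) was at 163, 168 and 159.9 CPM under DMSO at 120 h and 45.8, 40.1 and 34.1 CPM under ATRA. The fold reductions at 120 h were 3.51 for CCNB1 and 4.1 for CCNA2. CDK1 itself, CCNB2 and CDC25C were reduced 2.7-, 3.44- and 2.82-fold, and all 5 members of the group were also lower at 72 h.

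The 3 mitotic kinases were lower at both times. AURKA, the kinase of centrosomes and spindle poles (ENSG00000087586, chromosome 20, 56369385 to 56392566, minus strand), was at 143, 137 and 128 CPM under DMSO at 120 h and 64.9, 58.8 and 46.6 CPM under ATRA (-1.26 ± 0.08). PLK1, which acts from mitotic entry to cytokinesis (ENSG00000166851, chromosome 16, 23677656 to 23692330, plus strand), was at 129.1, 128.8 and 109 CPM under DMSO at 120 h and 29.9, 29.3 and 23.1 CPM under ATRA (-2.16 ± 0.09), a larger reduction than that of AURKA. The table assigns a fragment to every gene it overlaps, and 35.75% of the exon length of PLK1 is shared on the same strand with exons of DCTN5. The counts of DCTN5 changed by -1.09 at 120 h. Fragments in a shared stretch count in both genes, here and for the sharing genes named below. Values of such pairs are therefore not independent, and the part of the shared fragments in them was not tested. NEK2, the gene of largest change at 4 h, was at 25.1, 23.2 and 22.6 CPM under DMSO at 120 h and 9.21, 9.18 and 7.86 CPM under ATRA.

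The chromosomal passenger complex, which corrects faulty attachments and is led by the kinase AURKB, fell as a whole at 72 h and 120 h. BIRC5, or survivin (ENSG00000089685, chromosome 17, 78214186 to 78227263, plus strand), was at 57.1, 60.2 and 55.6 CPM under DMSO at 72 h and 29.1, 25.97 and 26.9 CPM under ATRA. This log2 fold change of -1.08 ± 0.08 was, with that of MAD2L1, 1 of the 2 past 2-fold at 72 h. INCENP, the scaffold of the complex (ENSG00000149503, chromosome 11, 62123973 to 62159893, plus strand), was at 164, 169.7 and 148 CPM under DMSO at 120 h and 67.0, 75.8 and 58.4 CPM under ATRA. At 120 h BIRC5 was reduced 3.49-fold, AURKB 3.02-fold, CDCA8 2.43-fold and INCENP 2.39-fold.

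The 5 spindle checkpoint genes separated. MAD2L1, which encodes the protein that locks CDC20 (ENSG00000164109, chromosome 4, 120055608 to 120067074, minus strand), was at 81.5, 70.4 and 76.2 CPM under DMSO at 72 h and 34.2, 36.2 and 32.7 CPM under ATRA, and at 82.1, 80.8 and 87.6 CPM against 19.7, 19.4 and 17.2 CPM at 120 h. Its log2 fold changes were -1.15 ± 0.11 and -2.16 ± 0.11. BUB3, which recruits the BUB kinases to kinetochores (ENSG00000154473, chromosome 10, 123154277 to 123228965, plus strand), was at 196, 185 and 190.4 CPM under DMSO at 72 h and 193, 177 and 199 CPM under ATRA, so that the arms overlapped. Its change at 72 h was -0.01 ± 0.06 (adjusted p = 0.932) and its change at 120 h was -0.46 ± 0.06 (adjusted p = 6.64e-09), with 235, 234 and 239.8 CPM under DMSO and 176, 182 and 158 CPM under ATRA. BUB3 at 120 h was at 65.8% of its untreated level, while BUB1B and MAD2L1 were at 19.8% and 20.1%. BUB1B had the largest fall of all members at 120 h (-2.18 ± 0.08), and BUB1 and TTK were reduced 2.34- and 2.39-fold. Of the exon length of BUB1B, 6.98% is shared with the readthrough gene BUB1B-PAK6, whose counts, shared fragments included, changed by -2.02 at 120 h.

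Of the 6 kinetochore and centromere genes, CENPF, CENPE, NUF2, SPC25 and NDC80 were reduced 4.16-, 3.53-, 2.91-, 2.69- and 2.5-fold at 120 h and CENPA 1.14-fold. CENPE, a kinetochore kinesin that carries chromosomes to the metaphase plate (ENSG00000138778, chromosome 4, 103105415 to 103198409, minus strand), was at 95.6, 93.2 and 102 CPM under DMSO at 120 h and 30.2, 27.99 and 24.5 CPM under ATRA. Of the exon length of CENPE, 25.19% is shared with BDH2, whose counts, shared fragments included, changed by 0.27 at 4 h and -1.16 at 120 h. SPC25, a subunit of the NDC80 complex (ENSG00000152253, chromosome 2, 168830617 to 168913371, minus strand), was at 5.65, 4.86 and 4.37 CPM under DMSO at 72 h and 5.01, 3.71 and 4.26 CPM under ATRA, and did not pass (-0.20 ± 0.14, adjusted p = 0.2). Its DMSO level at 72 h was below the untreated 10.61 to 11.21 CPM, and at 120 h it was 8.59 to 10.54 CPM under DMSO and 3.37 to 3.88 CPM under ATRA. CENPA (ENSG00000115163, chromosome 2, 26764289 to 26803376, plus strand) was at 47.8, 50.4 and 45.6 CPM under DMSO at 72 h and 39.9, 37.2 and 35.8 CPM under ATRA. At 120 h it was at 53.0, 58.7 and 52.9 CPM under DMSO and 50.6, 49.6 and 44.0 CPM under ATRA, apart but close. Its change of -0.19 ± 0.07 at 120 h (adjusted p = 0.016) no longer passed without ATRA replicate 5 (-0.10, adjusted p = 0.252), with RLE size factors (-0.10, adjusted p = 0.239) or with DESeq2 (-0.10, adjusted p = 0.278). Of the exon length of CENPA, 17.29% is shared with SLC35F6, whose change was -0.39, -0.55, 0.44 and 0.80 at 12, 24, 72 and 120 h, and the part of these shared fragments in the values of CENPA was not tested.

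The spindle motors and TPX2 were all lower at both times. TPX2, which activates AURKA on the spindle (ENSG00000088325, chromosome 20, 31739271 to 31817636, plus strand), was at 172, 197 and 180.3 CPM under DMSO at 72 h and 117, 116 and 110.3 CPM under ATRA, and at 197, 198 and 190.5 CPM against 70.1, 66.1 and 50.1 CPM at 120 h. KIF2C, a kinesin that removes tubulin from microtubule ends (ENSG00000142945, chromosome 1, 44738085 to 44770055, plus strand), was at 125, 139.9 and 132 CPM under DMSO at 72 h and 70.9, 69.0 and 65.8 CPM under ATRA (-0.95 ± 0.07). Against DMSO, most of the fall of KIF2C was present at 72 h, with -1.22 ± 0.08 at 120 h. KIF11, the kinesin that drives the spindle poles apart, showed the other order against DMSO, with -0.22 ± 0.09 at 72 h (adjusted p = 0.0393) and -1.22 ± 0.09 at 120 h. Under ATRA KIF11 was at 42.1% of its untreated level at 72 h and 33.6% at 120 h, and KIF2C at 52.9% and 37.6%. Under DMSO KIF11 was at 48.9% and 78.3%, and KIF2C at 102% and 87.8%. At 72 h KIF11 did not pass with RLE size factors, with DESeq2, without DMSO replicate 2 or without ATRA replicate 4 (adjusted p = 0.0638, 0.0975, 0.0916 and 0.133).

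Among the genes of anaphase, CDC20, the activator of the anaphase-promoting complex (ENSG00000117399, chromosome 1, 43358477 to 43368023, plus strand), was at 132, 126 and 110.5 CPM under DMSO at 120 h and 38.2, 34.8 and 25.2 CPM under ATRA. ESPL1 (ENSG00000135476, chromosome 12, 53267830 to 53293851, plus strand) was at 76.02, 69.6 and 67.5 CPM under DMSO at 72 h and 69.1, 69.1 and 64.6 CPM under ATRA, and did not pass (-0.07 ± 0.07, adjusted p = 0.401). Its arms overlapped at 72 h and were far apart at 120 h, at 105.1, 104 and 99.9 CPM under DMSO and 36.3, 31.6 and 26.2 CPM under ATRA (-1.72 ± 0.08). At 120 h CDC20, PTTG1, ESPL1 and UBE2C, the E2 enzyme of the complex, were reduced 3.77-, 3.68-, 3.29- and 1.76-fold.

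In the central spindle and cytokinesis group, PRC1, which bundles antiparallel microtubules (ENSG00000198901, chromosome 15, 90965695 to 90995629, minus strand), was at 125, 122 and 127 CPM under DMSO at 120 h and 70.2, 67.4 and 52.9 CPM under ATRA, a 1.96-fold reduction. ANLN, an actin-binding protein of the cleavage furrow (ENSG00000011426, chromosome 7, 36389806 to 36455243, plus strand), was at 181, 170.3 and 176 CPM under DMSO and 79.8, 78.6 and 58.6 CPM under ATRA. The kinesins KIF20A and KIF23 had larger reductions of 3.71- and 3.7-fold, and ECT2, which activates RhoA at the furrow, was reduced 2.07-fold. Of the exon length of KIF23, 31.83% is shared with PAQR5, whose counts, shared fragments included, changed by -1.87 at 120 h.

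Of the 3 genes of chromosome structure, TOP2A, the topoisomerase that untangles sister DNA (ENSG00000131747, chromosome 17, 40388516 to 40417950, minus strand), was at 440.3, 441 and 458 CPM under DMSO at 120 h and 133, 130.4 and 104 CPM under ATRA, a 3.64-fold reduction. MKI67, which coats mitotic chromosomes and is the source of the Ki-67 proliferation index (ENSG00000148773, chromosome 10, 128092566 to 128126423, minus strand), was at 255, 263 and 265 CPM under DMSO at 72 h and 239, 214 and 236 CPM under ATRA (-0.19 ± 0.08, adjusted p = 0.0506). It lay at the edge of the threshold at 72 h and its adjusted p ranged from 0.00191 with library totals to 0.114 with DESeq2. At 120 h it was at 380.2, 372 and 363 CPM under DMSO and 220.0, 199 and 172 CPM under ATRA, a 1.89-fold reduction. Under ATRA at 72 h TOP2A was at 48.8% and MKI67 at 58.2% of the untreated level. NCAPG, a condensin subunit, was reduced 2.5-fold.

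**Figure D3:**
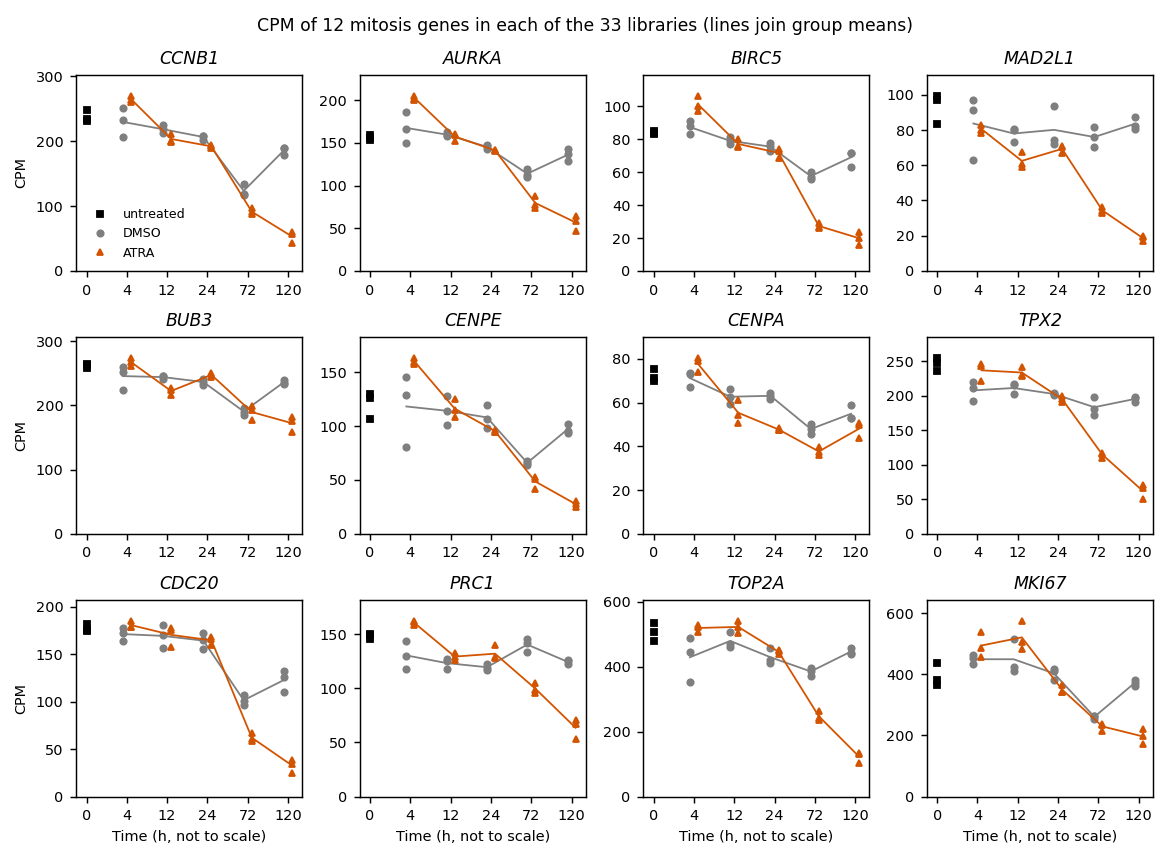
CPM (vertical axes, from 0) of 12 members in each of the 33 libraries against time (h, evenly spaced), as squares for untreated cells, circles for DMSO and triangles for ATRA, with lines through the means of 3. Most genes part from DMSO by 72 h, while BUB3 overlaps DMSO at 72 h and CENPA lies just under it at 120 h.

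The DMSO cells did not stay at the untreated level. Against untreated cells, 10 members were lower under DMSO at 12 h, 19 at 24 h, 32 at 72 h and 19 at 120 h, beside 11.5%, 9.24%, 24.7% and 9.59% of all genes. None was called higher at these times, beside 11.2%, 9.87%, 26.9% and 12.3% of all genes, and at an unadjusted p under 0.05 there were 3 higher at 12 h and 0 at the others. The median log2 fold changes were -0.11, -0.20, -0.46 and -0.22. DMSO libraries lay below all untreated libraries for 37 members at 72 h and 32 at 120 h, where 58.6% and 37.9% of all genes had groups apart in either direction. The values at 72 h were uneven: SPC25, KIF11, CCNB1 and CENPE had log2 fold changes of -1.15, -1.03, -0.95 and -0.87, while KIF2C, PRC1, CDC25C, NEK2 and CDK1 had 0.03, -0.08, -0.12, -0.13 and -0.14 and did not pass. Untreated cells were sequenced in lane 4, and the cells of 24, 72 and 120 h in lanes 2 and 3, so that lane and time cannot be told apart in these comparisons. DMSO at 24, 72 and 120 h shared 1 arrangement of lanes, and their summed member levels were 4839 ± 103, 3898 ± 77.6 and 4714 ± 33.7 CPM (mean ± SD, n = 3). Scaled by library totals alone, the counts were 3 higher and 4 lower at 12 h and 10 lower at 24 h. Of the 22971 genes, 3787 were higher and 1710 lower at 12 h with that scaling, and 3266 and 1334 at 24 h. The 10 lower calls of 12 h were 6 without untreated replicate 2 or 4 or DMSO replicate 5, and the 19 of 24 h were 12 without DMSO replicate 4 or 5. The ATRA comparisons share these DMSO libraries.

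With DMSO as the base and with untreated cells as the base, the order of the members at 72 h differed. CCNB1 under ATRA at 72 h was at 74.0% of DMSO, and KIF2C at 51.9%, yet the log2 ratio to untreated cells was -1.38 for CCNB1 and -0.92 for KIF2C. The 4 members that did not pass at 72 h (BUB3, SPC25, ESPL1 and MKI67) all had a DMSO level lower than untreated cells at that time, and each was lower under ATRA than in untreated cells. Neither trait set these 4 apart. At 72 h 39 of the 40 members had a log2 fold change below 0 under DMSO against untreated cells, and all 40 under ATRA.

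**Figure D4:**
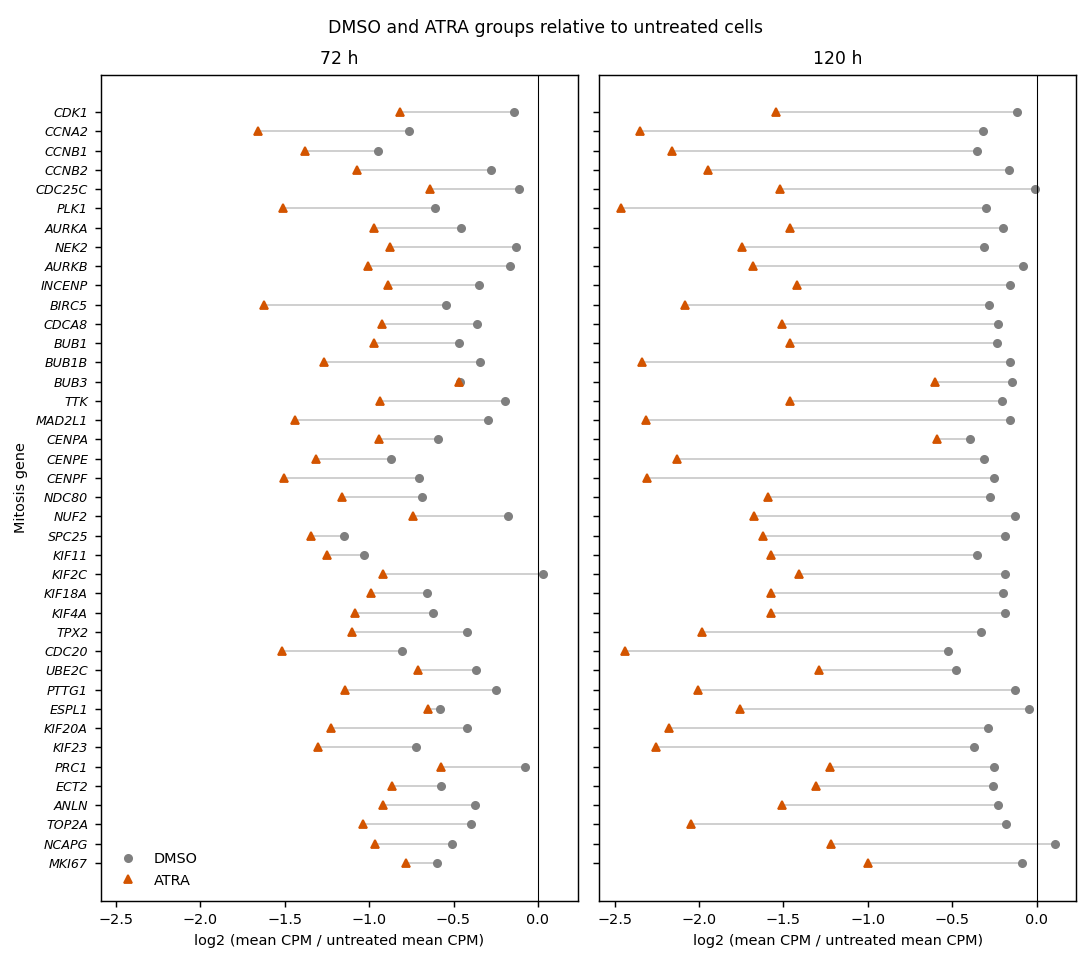
Log2 ratio of mean CPM to that of untreated cells (horizontal axes) for each member (rows) under DMSO (circles) and ATRA (triangles) at 72 h and 120 h, with n = 3 libraries a group. At 72 h the DMSO circles spread from 0.03 for KIF2C to -1.15 for SPC25, and at 120 h they lie closer to 0 while the ATRA triangles lie further to the left.

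Whether the ATRA effect, as the difference of ATRA from DMSO, changed between successive times was tested as an interaction. Between 4 h and 12 h it became lower for 11 members (CCNA2, CCNB1, NEK2, BUB1, BUB3, CENPA, KIF2C, KIF18A, ESPL1, ECT2 and NCAPG) beside 5.9% of all genes lower and 8.14% higher, and the largest change was that of KIF18A (-0.52 ± 0.13, adjusted p = 0.00515). Without DMSO replicate 5 of 4 h this count was 7, and without DMSO replicate 4 of 4 h it was 23. Between 12 h and 24 h it became lower for MKI67 (-0.42 ± 0.12, adjusted p = 0.0208), beside 4.4% of all genes lower and 2.5% higher. That count was 0 without DMSO replicate 5 of 12 h, DMSO replicate 2 or 5 of 24 h, or ATRA replicate 2 or 4 of 24 h. Between 24 h and 72 h the effect became lower for 31 members, beside 24.5% lower and 21.5% higher, and between 72 h and 120 h for 39, beside 21.8% lower and 17.5% higher. The exception in the last interval was CENPA, at 0.16 ± 0.10 (adjusted p = 0.23). ESPL1 had the largest late change (-1.65 ± 0.11, adjusted p = 4.97e-16), and KIF2C the smallest that passed (-0.28 ± 0.10, adjusted p = 0.0308). Changes in both arms enter these tests. Between 72 h and 120 h the mean summed member level rose from 3898 to 4714 CPM under DMSO and fell from 2649 to 1757 CPM under ATRA. ESPL1 went from 66.9% to 97.0% of its untreated level under DMSO and from 63.7% to 29.5% under ATRA. No member's effect became higher in any of the 4 intervals; at an unadjusted p under 0.05, 1 did between 12 h and 24 h, and DESeq2 and limma-voom called none.

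Over the 5 times, 14 members were higher at 4 h, not called at 12 h and 24 h, and lower at 72 h and 120 h, and 10 were called at 72 h and 120 h alone. A further 5 (CDC25C, NEK2, INCENP, UBE2C and KIF20A) were higher at both 4 h and 12 h and lower at 72 h and 120 h. The share of all genes with each of these patterns was not counted, so they are descriptions of the members alone. They also rest on the early calls: as single libraries were left out, higher calls ranged from 13 to 27 at 4 h and from 1 to 5 at 12 h. Across the 40 members, the change at 120 h had a Pearson's r of 0.65 with the change at 72 h, 0.13 with that at 24 h and 0.27 with that at 4 h, and -0.13 with the log2 untreated level. These are correlations across genes of the same libraries, which are not independent, and they are given as descriptions.

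By promoter, the 20 members with TTTGAA had a median log2 fold change of 0.22 at 4 h and -1.38 at 120 h, with a range at 120 h of -2.18 to -0.19. The 14 with no TTTGAA in the bases read had 0.23 and -1.70, with a range of -2.16 to -1.22. Only bases before the gene start were read, so a match at or after the start was not counted. Some of these 14, among them CCNB1 and KIF20A, held TTTAAA, and 25 of the 34 members held TTTGAA or TTTAAA. CENPA, with the smallest fall, and BUB1B, with the largest, both held the letters TTTGAA. Whether a working CHR bears on the size of the fall was not tested.

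Other genes of cell division, taken as lists that do not hold the 40 members, gave a setting for these values. Their counts are read beside all genes, of which 35.6% were lower and 34.9% higher at 120 h, and 12.4% lower and 12.3% higher at 4 h. At 120 h all 31 DNA replication genes tested were lower (median -1.47), led by MCM6 and GINS2 of the replicative helicase at -2.62 ± 0.08 and -2.77 ± 0.09. At 4 h 3 of the 31 were higher, a share below the 12.3% of all genes, with a median of 0.06 where the mitosis members had 0.22. All 7 other condensin genes were lower at 120 h (median -1.37; NCAPD2 -1.53 ± 0.06), as were 24 of 28 other kinetochore and centromere genes (median -1.11; CENPH -2.23 ± 0.11) and 18 of 20 other spindle, motor and cytokinesis genes (median -1.31; KIF15 -2.15 ± 0.09). At 4 h 11 of these 28 and 7 of these 20 were higher.

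The core of the anaphase-promoting complex was mixed, with 10 of 17 genes lower and 3 higher at 120 h (median -0.25), beside 35.6% and 34.9% of all genes, and ANAPC5 and ANAPC1 at -1.48 ± 0.06 and -1.40 ± 0.07. Of 14 genes of cohesin and its regulators 10 were lower and 3 higher, from SGO2, a guardian of centromeric cohesion, at -1.63 ± 0.16, to the cohesin loader NIPBL, higher at 0.69 ± 0.08. In mitotic entry control 10 of 13 were lower and 1 was higher. The phosphatase CDC25A, the cyclin CCNF and the inhibitory kinases PKMYT1 and WEE1 had -1.95 ± 0.08, -1.94 ± 0.08, -1.74 ± 0.11 and -1.29 ± 0.08. The 1 higher gene was MASTL, whose product restrains the phosphatase PP2A in mitosis, at 1.07 ± 0.09; it was named after its value was seen. Of 9 genes of centriole duplication 8 were lower, among them PLK4 at -1.59 ± 0.10.

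Among 17 genes of MuvB, FOXM1 and E2F regulators, 10 were lower and 2 higher at 120 h (median -0.39). MYBL2, which joins MuvB to activate mitotic genes, went from a mean of 387 CPM under DMSO to 63.2 CPM under ATRA at 120 h (-2.61 ± 0.09, adjusted p = 5.41e-26), a larger change than that of any of the 40 members. FOXM1, a transcription factor of G2 and M genes, went from 100.6 to 46.1 CPM (-1.13 ± 0.08), TFDP1, the partner of E2F factors, from 317 to 127 CPM (-1.33 ± 0.07), and E2F1 from 72.5 to 33.0 CPM (-1.14 ± 0.09). At 4 h MYBL2, FOXM1 and TFDP1 did not pass (-0.07, 0.08 and -0.11), and E2F1 was higher (0.24 ± 0.08, adjusted p = 0.0228).

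The cell cycle inhibitors had more genes higher than lower, with 5 of 8 tested genes higher and 1 lower at 120 h, and 5 of 8 higher and 0 lower at 4 h. The median at 4 h was 0.44. DMSO at 4 h against untreated cells, which shares the DMSO libraries, had 4 of the 8 lower and 1 higher (median -0.45). Of all genes 15.7% were called in each direction in that comparison. CDKN2D, an inhibitor of CDK4 and CDK6, was at a mean of 30.8 CPM under ATRA against 6.51 CPM under DMSO at 4 h (2.24 ± 0.09, adjusted p = 8.65e-23) and 47.8 against 8.39 CPM at 120 h (2.51 ± 0.08). CDKN1C, CDKN2C and BTG1 were also higher at 4 h (2.70 ± 0.26, 0.35 ± 0.09 and 0.33 ± 0.08). BTG2 and CDKN1A, or p21, were higher at 120 h by 3.33 ± 0.12 and 2.495 ± 0.146. At 4 h, then, 22 mitosis genes and 5 inhibitor genes were higher in the same libraries.

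**Figure D5:**
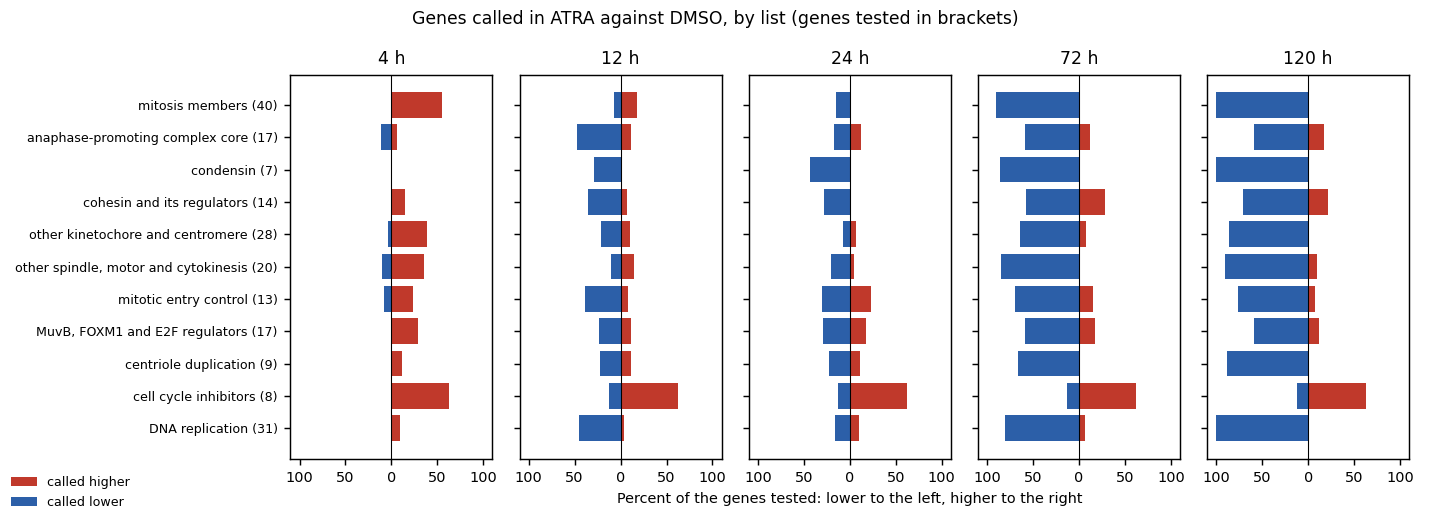
Percent of the tested genes of each list (rows, number tested in brackets) called higher (red, to the right) or lower (blue, to the left) in ATRA against DMSO at 5 times, by an adjusted p under 0.05. The mitosis members go from 22 of 40 higher at 4 h to 40 of 40 lower at 120 h, and 5 of 8 cell cycle inhibitors are higher at 4 h and 5 of 8 at 120 h.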

How the data were processed

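RNA was extracted from NB4 cells and made into stranded total RNA libraries, sequenced as 150 bp read pairs on an Illumina HiSeq, per the labels' protocols. Per the submitters' processing notes the tools were Trimmomatic 0.36, STAR 2.5.2b and Subread 1.5.1. The authors deposited 1 table of raw counts, made with featureCounts 1.5.1 on GRCh38, per the file header: read pairs over exons, reverse strand, with a pair counted in every gene it overlaps. Its gene models join Ensembl and FANTOM CAT transcripts, so a model can be longer than the messenger RNA and levels per exon base rank members only roughly. How the technical runs named in the series design were combined is not given in the sources used here.

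Gene symbols came from GENCODE 29 by Ensembl ID. Counts of all 33 libraries were fitted with edgeR 4.0.16 in R 4.3.3 (filterByExpr, TMM factors of 0.827 to 1.108, 1 mean per group, quasi-likelihood test), with p-values adjusted by Benjamini-Hochberg over 22971 genes within each of the comparisons, and a threshold of 0.05. SE is the log2 fold change over the square root of F. The scripts were tested on simulated data. The biological coefficient of variation was 0.0769, and the median SE of a member was 0.077 at 4 h and 0.084 at 120 h. The labels call the replicates biological, with no more said of their source, so p-values measure the spread between these samples.

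All 40 members were open to be named; per-library values were given for the members of highest count per exon base in each role and those whose call departed from their role at 72 h or 120 h, at 12 h and 24 h every called member was named, at 4 h those of smallest p, and from other lists up to 4 genes of smallest p. The members and lists were chosen with earlier results of these data known. Alternatives were RLE size factors, library totals, no filter, DESeq2 1.42.0, limma-voom (limma 3.58.1), groups compared alone, a replicate block, a lane term and each library left out. Promoters were read from RefSeq, GRCh38.p14.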

Additional observations from a re-analysis of the deposited data

Results flagged for a closer look

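Between successive times the ATRA effect on the mitosis genes differed by the interaction test of edgeR's quasi-likelihood fit, in each case toward lower values. The difference passed for 11 members between 4 h and 12 h, and for 1 (MKI67) between 12 h and 24 h. It passed for 31 between 24 h and 72 h and for 39 between 72 h and 120 h. The effect became lower for 5.9%, 4.4%, 24.5% and 21.8% of all genes in these intervals, and higher for 8.14%, 2.5%, 21.5% and 17.5%. Between 12 h and 24 h the share of members was no larger than that of all genes. The first of these member counts ranged from 7 to 23 and the second from 0 to 1 as single libraries were left out, the third from 29 to 32 and the last from 37 to 39. Each test takes in changes of the DMSO libraries as well as of the ATRA libraries. The cause of these differences was not tested. Groups of 3 libraries are too small for a test of single libraries that stand apart.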

How the results depend on the processing

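The falls at 72 h and 120 h kept their counts best. Lower calls stayed between 35 and 37 at 72 h and between 39 and 40 at 120 h as single libraries were left out, and no called member changed sign under any alternative run. Higher calls at 4 h ranged from 13 to 27 and lower calls from 0 to 1 over the left-out libraries, the lowest count being without DMSO replicate 5. At 12 h, higher calls ranged from 1 to 5, and were 4 with RLE size factors, 11 with library totals and 1 with no filter, and lower calls were 1 with library totals. At 24 h, the groups compared alone gave 3 higher and 11 lower. For DMSO against untreated cells at 4 h, higher calls were 4 with library totals, 0 with no filter, 0 with groups compared alone and 0 to 1 without single libraries, and lower calls 4 with library totals and 7 to 19 without single libraries. At 12 h, higher calls were 3 with library totals, 2 with groups compared alone and 0 to 1 without single libraries, and lower calls 4 with library totals and 6 to 9 without single libraries. At 24 h, lower calls were 10 with library totals and 12 to 19 without single libraries. The change of effect from 4 h to 12 h was lower for 7 with library totals, for 7 with groups compared alone and for 7 to 23 without single libraries. From 12 h to 24 h, lower calls were 2 with RLE size factors, 6 with library totals, 3 with groups compared alone, 2 with limma-voom, 2 with DESeq2 and 0 to 1 without single libraries, and groups compared alone gave 1 higher. The cause of these shifts was not tested.

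Scaling by library totals moved the median of all genes at 120 h by -0.20 and that of the members to -1.64, which left the members -1.41 from all genes, against -1.40 with TMM. For DMSO against untreated cells at 4, 12 and 24 h it moved the median of all genes by 0.115, 0.08 and 0.071. The members then lay -0.121, -0.105 and -0.2 from all genes, against -0.125, -0.108 and -0.204 with TMM. Replicate numbers were not treated as pairs, since not every same-numbered pair had a correlation over 0.1: same-numbered ATRA and DMSO libraries of 1 time had correlations of -0.02 to 0.20, with 4 of 15 over 0.1, and 10 of the 15 were highest with their own number, a hint of pairing from the data and not from the design. With the replicate block, DMSO at 4 h had 2 higher members and the change from 12 h to 24 h 2 lower, and other member counts stayed within 1.5 times. NUF2, CDC25C and SPC25 had the widest SEs at 120 h (0.154, 0.14 and 0.132). At a median SE of 0.077, changes under about 0.2 could not be told from 0 at 4 h.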
